A study of Mus musculus with 8 samples.

Results

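Mitochondrial ribosomal proteins were followed in mouse leukaemia stem cells in which Itgb3, which encodes integrin beta 3, was targeted by either of 2 hairpins. The members were taken by gene symbol alone, as every probe whose annotated symbol began with Mrpl or Mrps and a number, which gave 76 of the 19057 genes named on the array and 132 of its 45281 probes. Of these genes 48 carried an Mrpl symbol (83 probes), which names proteins of the large subunit, and 28 an Mrps symbol (49 probes), which names those of the small subunit. Their genes lay on 17 chromosomes.

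The mitochondrial ribosome (mitoribosome) translates the few messenger RNAs encoded by mitochondrial DNA, all for subunits of the respiratory chain and the ATP synthase. Its RNAs come from the mitochondrial genome, whereas all its proteins are encoded in the nucleus, made in the cytosol and imported. Some of the proteins have a counterpart in the bacterial ribosome and others occur only in mitochondria. Acute myeloid leukaemia cells are known to be sensitive to inhibition of mitochondrial translation, as by tigecycline.

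RNA was hybridised to 8 Illumina bead arrays. All samples were leukaemia cells with the MLL-AF9 oncogene on a C57BL/6 Actin-dsRed background, and had been sorted from bone marrow after a quaternary transplant by dsRed, CD34, c-kit (high), FcyRII (high) and weak Hoechst staining. They carried a short hairpin RNA (shRNA) against luciferase (Luc control, 3 arrays), Itgb3-17 (3 arrays, replicates 1 to 3) or Itgb3-20 (2 arrays, replicates 4 and 5), so that all groups shared the oncogene, the reporter and a hairpin, and none was free of them. The labels give no age, and they leave unsaid if the replicates of a group were separate mice, so that p-values reflect only the scatter of these samples and this may be technical.

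Between 9262 and 11856 probes (20.5% to 26.2%) were above background on each array, and 87 to 93 of the 132 mitoribosomal probes. The probe of Itgb3 was above background on 0 of 8 arrays (detection p 0.324 to 0.912), so that the knockdown could not be checked here. Of the sort markers, Kit, Fcgr3 and Fcgr2b were above background on all 8 arrays and the probe of Cd34 on 1. Fcgr2b was called higher with knockdown by 0.51 (SE 0.14, adjusted p = 0.0181), although not on leaving out Luc control replicates 1 or 3 or Itgb3-20 replicate 4. This was the brightest of its 4 tested probes, and the others are not given. Fcgr3 was higher by 1.04 with Itgb3-20 (adjusted p = 0.00427) and differed by -0.18 with Itgb3-17 (adjusted p = 0.564), and the hairpins differed by 1.22 (SE 0.19, adjusted p = 0.0106). Kit differed by -0.29 ± 0.16 and was not called. All 8 erythroid markers on the array were below background on every array. Granulocyte markers were called higher with knockdown for 6 of 12 tested genes and lower for 0, where 9.46% of all genes were called higher and 8.25% lower, and their summed level was 18600 to 20200 on the Luc control arrays, 22000 to 24100 with Itgb3-17 and 28200 to 29000 with Itgb3-20, with Mmp8 below background throughout. The summed level of monocyte markers was 535 to 591, 749 to 954 and 1490 to 1580 in the same order, with 2 of 7 genes called higher, 0 lower and Ccr2 below background throughout. These were Lyz1 (1.58, SE 0.14, adjusted p = 3.8e-05) and Lyz2 (0.46, SE 0.15, adjusted p = 0.0458), which granulocytes are known to express too. The Lyz2 call was lost with any of the 8 arrays left out, and the other 5 genes differed by -0.16 to 0.07. Of 3 tested genes of mast cells and basophils Cpa3 was called higher (0.69, SE 0.15, adjusted p = 0.00509) and 0 lower, with Tpsb2, Cma1, Fcer1a and Ms4a2 below background throughout. The Cpa3 probe was above background on only 5 of 8 arrays, as was that of Ltf, among the 6 granulocyte genes called higher. Both probes had their lowest group mean in the Luc control, so the size of these rises is limited by background. Elane, S100a9 and Cebpe, also among those 6, were not called with Itgb3-17 alone (adjusted p = 0.0552, 0.366 and 0.27). S100a9 differed between the hairpins by 1.67 (SE 0.23, adjusted p = 0.00622). The Cebpe call was lost without Luc control replicates 1 or 2 or Itgb3-20 replicate 4, and that of Elane without Luc control replicate 2. The part of all the markers above in the results below was not tested. In such bulk samples fewer cells of a type and less RNA per cell cannot be told apart.

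Of the 132 probes, 98 from 68 genes were above background on at least 2 arrays and were tested, and 81 of them were above background on all 8. The other 34 were above background on 0 (26 probes) or 1 array (8 probes), and 8 genes had no tested probe (Mrpl19, Mrpl32, Mrpl39, Mrpl45, Mrpl52, Mrpl55, Mrps14 and Mrps27). Levels are normalized log2 intensities and differences are log2 differences between group means. A probe was called when its adjusted p in limma, after Benjamini-Hochberg adjustment over all 13315 tested probes, was under 0.05.

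With Itgb3 knockdown, taken as the mean of both hairpins minus Luc control, the mitoribosomal genes did not move as a block. Of the 98 tested probes 17 were called higher and 12 lower, or 29.6%, where 16.8% of all tested probes were called (8.93% higher and 7.84% lower). The median difference of the mitoribosomal probes was -0.016, against 0.0178 over all tested probes, while their median absolute difference was 0.263 against 0.207. Among probes above background on all 8 arrays the shares were 33.3% of 81 mitoribosomal probes and 26.6% of 6215 probes. The split between rises and falls depends on the scaling of the arrays. When arrays were scaled to a common median in place of quantile normalization, the median of all tested probes moved to 0.149 and that of the mitoribosomal probes to 0.243, and 15 mitoribosomal probes were called higher and 1 lower, against 1327 higher and 79 lower of all tested probes. None of the 29 called probes changed sign under that scaling or under any other alternative tried.

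Taking the brightest tested probe of each gene, 13 of 68 genes were called higher and 7 lower (29.4%), where 17.7% of 8189 genes were called (9.46% higher and 8.25% lower). All 5 knockdown arrays lay above all 3 Luc control arrays for 15 mitoribosomal probes and below them for 14. Together these were 29.6% of the tested members, where 20.3% of all tested probes were apart in this way (11.5% above and 8.87% below), and 22 of the 29 called probes were among those whose arrays did not overlap. Among probes above background on all 8 arrays 34.6% of 81 mitoribosomal probes were apart, against 29.9% of 6215 probes. The number of arrays limits the precision, and leaving out a single array moved the count of rises to between 8 (without Luc control replicate 3) and 15, and that of falls to between 6 (without Luc control replicate 1 or 2) and 18 (without Itgb3-20 replicate 5). Without Luc control replicate 2 the rises were 9, and without Itgb3-17 replicate 2 or Itgb3-20 replicate 4 they were 10.

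**Figure D1:**
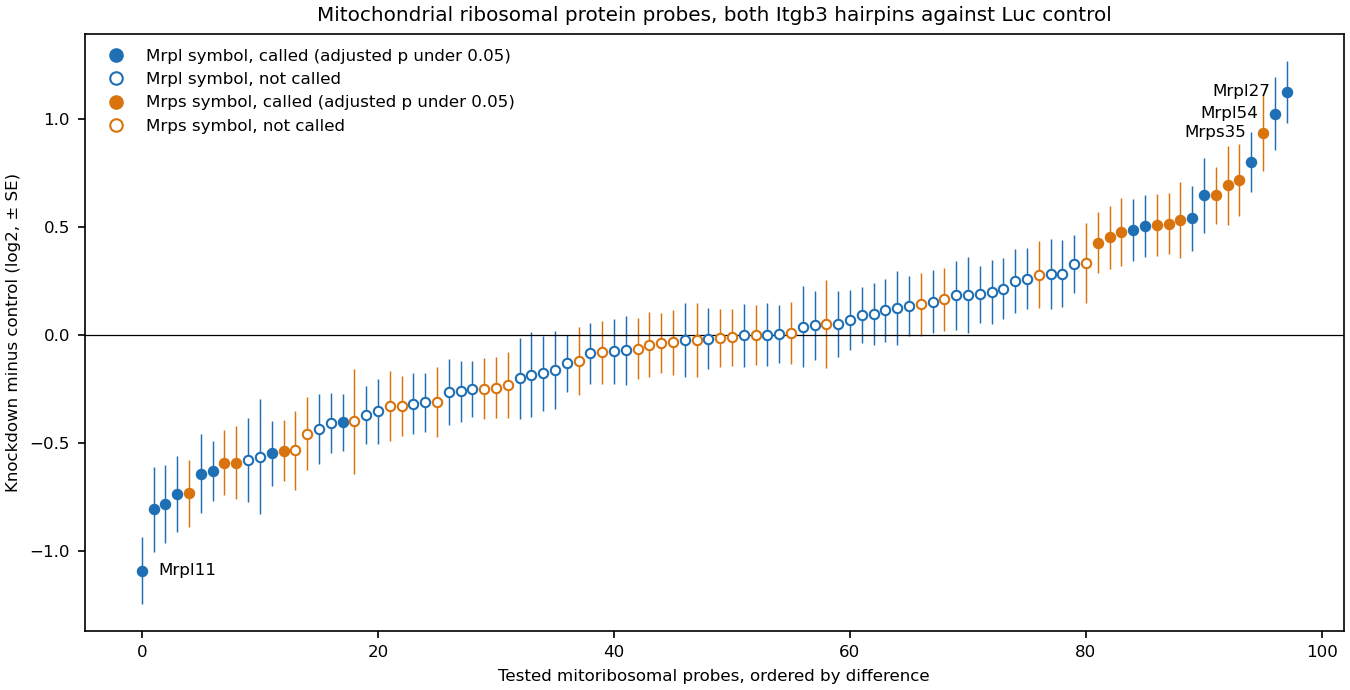
Knockdown minus control (log2, ± SE) of the 98 tested mitoribosomal probes in order of the difference, blue for Mrpl and orange for Mrps symbols, filled where called. The probes run from Mrpl11 at -1.09 to Mrpl27 at 1.13, with 12 called on the left and 17 on the right; with arrays scaled to a common median 1 and 15 were called.

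Promoters are shown for 4 genes, 1 that rose and 2 that fell among those of largest change, and 1 shared with a neighbouring mitoribosomal gene. Each is the RefSeq window of GRCm38.p6 from 250 bases before to 50 bases after the annotated start, 5′ to 3′ on the strand of the gene. Capitals mark a match on either strand to the ETS motif CCGGAAG, the 10-letter NRF1 motif or the 11-letter YY1 motif. These are recognition sequences of factors known to act on nuclear genes of mitochondrial proteins. The Mrpl27 window is chr11:94653541-94653840 on the + strand and holds an ETS match at position -55 from the start. That of Mrpl9 is chr3:94443086-94443385 on the + strand, with an NRF1 match at -28. Mrpl11 is shown at chr19:4962056-4962355 on the + strand, where none of these 3 motifs is found in these letters. Mrps11, at chr7:78782881-78783180 on the + strand, has a YY1 match at -110 on the opposite strand. The windows of Mrps6, Mrps7, Mrpl1 and Mrpl46 were drawn up too and are not shown. None of them holds a match to these 3 motifs, so that the windows shown do not reflect how often the motifs occur.
Mrpl27: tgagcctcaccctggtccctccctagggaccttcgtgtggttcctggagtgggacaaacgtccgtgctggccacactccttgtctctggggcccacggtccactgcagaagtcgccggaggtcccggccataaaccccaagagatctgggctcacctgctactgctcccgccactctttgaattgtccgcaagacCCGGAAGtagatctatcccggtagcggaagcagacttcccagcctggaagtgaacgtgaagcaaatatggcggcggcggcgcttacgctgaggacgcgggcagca
Mrpl9: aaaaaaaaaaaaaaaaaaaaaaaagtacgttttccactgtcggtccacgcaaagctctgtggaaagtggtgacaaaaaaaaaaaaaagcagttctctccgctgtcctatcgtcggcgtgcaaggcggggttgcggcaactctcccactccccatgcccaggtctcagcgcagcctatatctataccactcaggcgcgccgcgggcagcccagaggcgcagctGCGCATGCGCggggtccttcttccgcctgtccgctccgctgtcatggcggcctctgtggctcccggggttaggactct
Mrpl11: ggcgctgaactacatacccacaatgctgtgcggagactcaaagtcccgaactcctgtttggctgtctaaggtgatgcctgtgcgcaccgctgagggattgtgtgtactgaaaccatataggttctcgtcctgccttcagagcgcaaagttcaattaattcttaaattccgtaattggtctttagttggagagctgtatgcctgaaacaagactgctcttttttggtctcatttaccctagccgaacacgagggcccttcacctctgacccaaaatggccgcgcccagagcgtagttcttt
Mrps11: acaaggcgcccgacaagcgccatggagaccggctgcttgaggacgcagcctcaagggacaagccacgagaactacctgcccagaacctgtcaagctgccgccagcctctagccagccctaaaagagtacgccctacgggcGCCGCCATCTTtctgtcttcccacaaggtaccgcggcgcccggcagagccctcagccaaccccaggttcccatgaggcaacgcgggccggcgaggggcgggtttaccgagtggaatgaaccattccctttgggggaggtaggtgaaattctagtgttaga

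Of the large subunit proteins with a bacterial counterpart, Mrpl11 and Mrpl1, both of stalk regions, were among those that fell. Mrpl11, whose counterpart in Escherichia coli forms the base of the stalk where elongation factors bind, had levels of 7.23, 6.88 and 6.87 on the Luc control arrays, 5.69, 5.96 and 6.01 with Itgb3-17, and 5.75 and 6.10 with Itgb3-20. All 5 knockdown arrays lay below all 3 control arrays, by more than the spread within any group. The difference was -1.09 (SE 0.15, adjusted p = 0.000479), the deepest fall of any mitoribosomal probe, and it was the fall that stayed called under every alternative. With each hairpin it was -1.11 with Itgb3-17 (adjusted p = 0.00132) and -1.07 with Itgb3-20 (adjusted p = 0.00325).

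Mrpl1, whose bacterial counterpart makes up the mobile stalk at the site where transfer RNA leaves, measured 6.63, 6.24 and 6.48 on the Luc control arrays, 6.34, 5.55 and 5.78 with Itgb3-17, and 5.45 and 5.63 with Itgb3-20. Itgb3-17 replicate 1 lay among the controls and the other knockdown arrays lay below them. Its difference was -0.74 (SE 0.18, adjusted p = 0.00946), and the call was lost on leaving out Luc control replicate 1 (-0.65, adjusted p = 0.052). Mrpl10, which anchors the stalk proteins, differed by -0.41 (SE 0.14, adjusted p = 0.0521) at its brighter probe, whose knockdown arrays were all below the controls, and by 0.04 ± 0.16 at the other. Mrpl12, the stalk protein that is also known to bind the mitochondrial RNA polymerase, differed by -0.08 ± 0.14 and was not called.

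Mrpl27 showed the opposite direction. The bacterial counterpart of this protein reaches into the peptidyl transferase centre. Its levels were 5.38, 5.46 and 5.71 on the Luc control arrays, 6.57, 6.76 and 6.77 with Itgb3-17, and 6.45 and 6.71 with Itgb3-20. Every knockdown array was above every control, with a gap that exceeded the range of the controls. The difference of 1.13 (SE 0.14, adjusted p = 0.000323) was the largest of the mitoribosomal probes, and each hairpin gave a call, 1.18 with Itgb3-17 (adjusted p = 0.000679) and 1.07 with Itgb3-20 (adjusted p = 0.00248). RefSeq lists a pseudogene of Mrpl27, and whether the probe also bound its transcript was not tested.

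Mrpl33, a small protein of the large subunit, measured 9.42, 9.57 and 9.29 on the Luc control arrays, 10.15, 10.37 and 10.16 with Itgb3-17, and 10.31 and 10.14 with Itgb3-20. No knockdown array overlapped the controls, and the difference was 0.80 (SE 0.14, adjusted p = 0.00144). A brighter probe of the same transcript entry differed by only -0.02 ± 0.14. Mrpl9, whose bacterial counterpart extends from the base of the mobile stalk, had levels of 8.28, 8.25 and 7.98 on the Luc control arrays, 7.84, 7.49 and 8.03 with Itgb3-17, and 6.47 and 7.40 with Itgb3-20. Itgb3-20 replicate 4 was the lowest and Itgb3-17 replicate 3 lay within the controls. The difference was -0.81 (SE 0.20, adjusted p = 0.0102) at this probe and -0.18 ± 0.17 at the second, and the call was lost on leaving out Luc control replicate 2 (-0.77, adjusted p = 0.0527).

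Mrpl15 had 5 tested probes. The annotation ties each of the 5 to a different transcript entry. The probe of its RefSeq entry was above background on only 1 array and was not tested. The probe with the largest change measured 5.99, 6.26 and 5.68 on the Luc control arrays, 5.19, 5.22 and 5.36 with Itgb3-17, and 4.75 and 5.51 with Itgb3-20. All knockdown arrays were below all controls, although Itgb3-20 replicate 5 was close to the lowest control. This probe differed by -0.78 (SE 0.18, adjusted p = 0.00789) and another by -0.64 (SE 0.18, adjusted p = 0.0239), whereas the other 3 lay between -0.08 and 0.21 and were not called. Among these was the brightest probe, at -0.08 ± 0.15, and the next brightest, at 0.004 ± 0.13. The second of the called probes was above background on 6 of 8 arrays. The first call was lost on leaving out Luc control replicate 2 (-0.65, adjusted p = 0.0569) and the second on leaving out Luc control replicates 2 or 3, Itgb3-17 replicate 2 or Itgb3-20 replicate 4 (-0.60 to -0.50, adjusted p = 0.0596 to 0.132).

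Of the remaining large subunit proteins with a bacterial counterpart, Mrpl21 was higher by 0.54 (SE 0.15, adjusted p = 0.0208), a call lost on leaving out Luc control replicate 3 or Itgb3-20 replicate 4 (0.43 to 0.46, adjusted p = 0.0812 to 0.0885). The Mrpl21 probe of the RefSeq entry was above background on only 1 array and was not tested. Mrpl23, whose counterpart lies at the exit of the peptide tunnel, was higher by 0.50 (SE 0.14, adjusted p = 0.0237), a call lost on leaving out Luc control replicate 2, Itgb3-17 replicate 2 or Itgb3-20 replicate 4 (0.40 to 0.47, adjusted p = 0.0603 to 0.123). RefSeq also lists a pseudogene of Mrpl23, and its part in this signal was not tested. Mrpl17 was lower by -0.41 (SE 0.13, adjusted p = 0.0467), with no overlap of the arrays, but no array of the 8 could be left out without loss of the call (adjusted p = 0.0648 to 0.111).

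Among the large subunit proteins found only in mitochondria, Mrpl54 had levels of 7.62, 6.94 and 7.38 on the Luc control arrays, 8.54, 8.43 and 8.26 with Itgb3-17, and 8.48 and 8.06 with Itgb3-20. The lowest knockdown array stood above the highest control. The difference was 1.03 (SE 0.17, adjusted p = 0.00114), with 1.10 with Itgb3-17 (adjusted p = 0.00206) and 0.95 with Itgb3-20 (adjusted p = 0.0101). Mrpl43 measured 6.92, 6.72 and 6.48 on the Luc control arrays, 7.57, 7.25 and 7.16 with Itgb3-17, and 7.70 and 7.06 with Itgb3-20. Its arrays did not overlap, and the difference was 0.65 (SE 0.17, adjusted p = 0.0177), against 0.19 ± 0.13 at a brighter probe; the call was lost on leaving out Luc control replicates 2 or 3 or Itgb3-20 replicate 4 (0.49 to 0.65, adjusted p = 0.0589 to 0.0868).

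Mrpl42 and Mrpl53 fell. Mrpl42 measured 8.49, 8.54 and 8.56 on the Luc control arrays, 7.69, 8.08 and 7.85 with Itgb3-17, and 7.96 and 7.90 with Itgb3-20, the controls lying close together and the knockdown arrays all below them. Its difference was -0.63 (SE 0.14, adjusted p = 0.00623), and it stayed called with each array left out, although not with arrays scaled to a common median. Mrpl53 was lower by -0.55 (SE 0.15, adjusted p = 0.0207), a call lost on leaving out Luc control replicates 1 or 2 (-0.49 to -0.46, adjusted p = 0.0882 to 0.105). Mrpl37 was higher by 0.49 (SE 0.14, adjusted p = 0.0283), against -0.16 ± 0.18 at its second probe, and its call was lost on leaving out Luc control replicates 1, 2 or 3, Itgb3-17 replicates 1 or 3 or Itgb3-20 replicate 5 (0.43 to 0.55, adjusted p = 0.0504 to 0.111). Mrps30, which in spite of its symbol sits in the large subunit, was higher by 0.45 (SE 0.14, adjusted p = 0.0418), a call lost on leaving out Luc control replicates 1, 2 or 3, Itgb3-17 replicates 1, 2 or 3 or Itgb3-20 replicate 5 (0.33 to 0.46, adjusted p = 0.0663 to 0.12). Neither Mrpl37 nor Mrps30 was called with arrays scaled to a common median, and Mrps30 was not called without a filter on dim probes.

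In the small subunit Mrps7, whose bacterial counterpart organises the assembly of the head, rose at both of its probes. The brighter probe measured 7.81, 7.69 and 7.66 on the Luc control arrays, 8.30, 8.28 and 8.42 with Itgb3-17, and 8.43 and 8.38 with Itgb3-20. The other measured 6.02, 6.00 and 5.97 on the Luc control arrays, 7.12, 6.92 and 6.44 with Itgb3-17, and 6.82 and 6.39 with Itgb3-20. At neither probe did any knockdown array reach the controls, and the spread of the controls was small at both. The differences were 0.65 (SE 0.13, adjusted p = 0.00404) and 0.72 (SE 0.17, adjusted p = 0.00836), and both calls held with each array left out.

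Mrps6, a protein of the platform in bacteria, had levels of 5.13, 5.18 and 4.59 on the Luc control arrays, 5.51, 6.01 and 5.30 with Itgb3-17, and 5.58 and 5.84 with Itgb3-20. The arrays did not overlap, and the difference was 0.69 (SE 0.18, adjusted p = 0.017), a call lost on leaving out Luc control replicate 3 (0.51, adjusted p = 0.0992). On that array a probe of Mrps15 at 4.63 was not above background. The Mrps6 level there, 4.59, was thus at background, which limits the size of this rise. Mrps5 and Mrps24, whose bacterial counterparts line the path by which messenger RNA enters, were higher by 0.53 (SE 0.18, adjusted p = 0.0479) and 0.51 (SE 0.14, adjusted p = 0.0203). The Mrps5 call was lost on leaving out Luc control replicates 1 or 3, Itgb3-17 replicates 1, 2 or 3 or Itgb3-20 replicate 4 (0.36 to 0.60, adjusted p = 0.0735 to 0.223), and that of Mrps24 on leaving out Luc control replicates 2 or 3 or Itgb3-17 replicate 2 (0.45 to 0.51, adjusted p = 0.0508 to 0.0892). Mrps5 was called under only 5 of 18 alternatives. Its call was also lost without background correction, with the authors' processed values and with the knockdown arrays as a single group, among others. Mrps11, also of the platform, was higher by 0.43 (SE 0.14, adjusted p = 0.0467) at one probe and differed by 0.05 ± 0.20 at the other; the call was lost on leaving out Luc control replicates 1, 2 or 3, Itgb3-17 replicates 2 or 3 or Itgb3-20 replicate 4 (0.39 to 0.45, adjusted p = 0.0778 to 0.128). It was also lost with array weights, with trend and robust moderation and with the knockdown arrays as a single group.

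Mrps18b, one of the 3 mitochondrial paralogues of a bacterial platform protein, measured 6.99, 6.71 and 6.85 on the Luc control arrays, 6.13, 5.92 and 6.34 with Itgb3-17, and 5.91 and 6.30 with Itgb3-20 at the probe of largest change. Each knockdown array lay below each control. The differences at its 3 probes were -0.73 (SE 0.15, adjusted p = 0.00456), -0.59 (SE 0.17, adjusted p = 0.0244) and -0.12 ± 0.16, the last of these at the brightest probe and not called. The second call was lost on leaving out Luc control replicates 1 or 2, Itgb3-17 replicate 2 or Itgb3-20 replicate 4 (-0.58 to -0.48, adjusted p = 0.0596 to 0.109). The paralogues Mrps18a, which sits in the large subunit, and Mrps18c differed by -0.04 ± 0.15 and 0.33 ± 0.19 and were not called. Mrps10, of the head, was lower by -0.54 (SE 0.14, adjusted p = 0.0154), with -0.23 ± 0.15 and -0.40 ± 0.24 at its other probes, and the call was lost on leaving out Luc control replicate 1 or Itgb3-20 replicate 4 (-0.46 to -0.46, adjusted p = 0.0552 to 0.0774). Mrps12, known for its place at the decoding centre, differed by -0.08 ± 0.15 and 0.16 ± 0.15 and was not called at either probe.

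Of the small subunit proteins found only in mitochondria, Mrps35 measured 6.09, 5.78 and 5.63 on the Luc control arrays, 6.92, 6.97 and 6.42 with Itgb3-17, and 7.01 and 6.53 with Itgb3-20. The knockdown arrays were all above the controls. The difference was 0.94 (SE 0.18, adjusted p = 0.00226) and was nearly equal with the hairpins, 0.94 with Itgb3-17 (adjusted p = 0.00555) and 0.93 with Itgb3-20 (adjusted p = 0.0126). Mrps26 was higher by 0.51 (SE 0.14, adjusted p = 0.0234), against -0.06 ± 0.14 at its second probe. Mrps23 was higher by 0.48 (SE 0.16, adjusted p = 0.0488) at one probe, while its brighter probe differed by -0.33 ± 0.14 with all knockdown arrays below the controls. Mrps31 was lower by -0.59 (SE 0.15, adjusted p = 0.0138), with -0.46 ± 0.17 and -0.25 ± 0.14 at its other probes. The Mrps26 call was lost on leaving out Luc control replicates 1 or 2, Itgb3-17 replicate 2 or Itgb3-20 replicate 4 (0.42 to 0.53, adjusted p = 0.0569 to 0.113), the Mrps23 call on leaving out Luc control replicates 2 or 3, Itgb3-17 replicates 1, 2 or 3 or Itgb3-20 replicate 4 (0.36 to 0.52, adjusted p = 0.0625 to 0.196), and the Mrps31 call on leaving out Luc control replicates 1 or 2 (-0.59 to -0.57, adjusted p = 0.0528 to 0.054). Mrps23 was also not called without a filter on dim probes, with a filter on mean level or with the knockdown arrays as a single group.

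**Figure D2:**
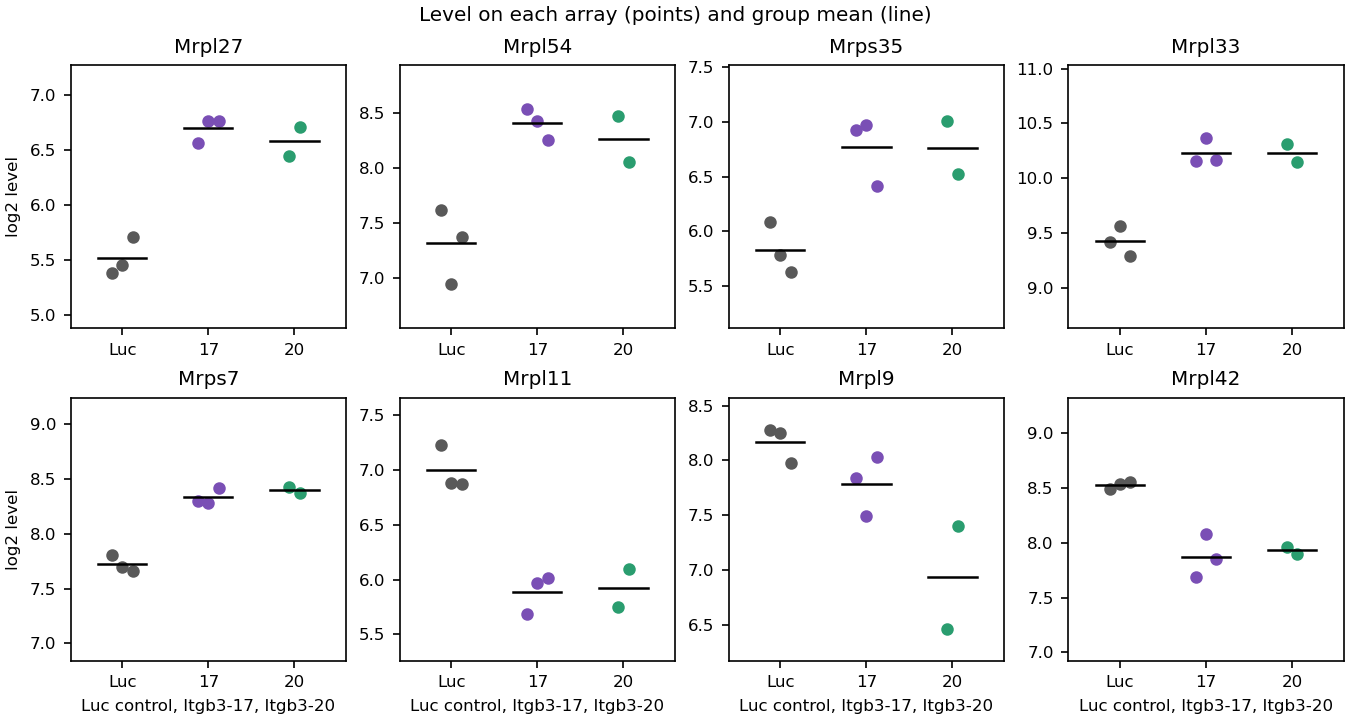
Normalized log2 level of 8 mitoribosomal genes on each array (points) with the group mean (line), for the Luc control (grey, 3 arrays), Itgb3-17 (purple, 3) and Itgb3-20 (green, 2); for each gene the called probe of lowest p is shown and the axes do not start at 0. Mrpl27, Mrpl54, Mrps35, Mrpl33 and Mrps7 lie higher and Mrpl11 and Mrpl42 lower on all 5 knockdown arrays, whereas Mrpl9 overlaps the controls on 1.

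By symbol, 7 of 59 Mrpl probes were called higher and 8 lower, and 10 of 39 Mrps probes were called higher and 4 lower, where 8.93% of all tested probes were called higher and 7.84% lower. With arrays scaled to a common median 15 of the rises remained called and, of the falls, only that of Mrpl11. Split by the subunit in which the protein sits, the counts were 8 and 8 of 61 probes for the large and 9 and 4 of 37 for the small subunit. Of the 60 probes for proteins with a bacterial counterpart 10 were called higher and 9 lower, and of the 38 for proteins found only in mitochondria 7 and 3. This grouping was made after the values were seen, and the differences between the classes were not tested.

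**Figure D3:**
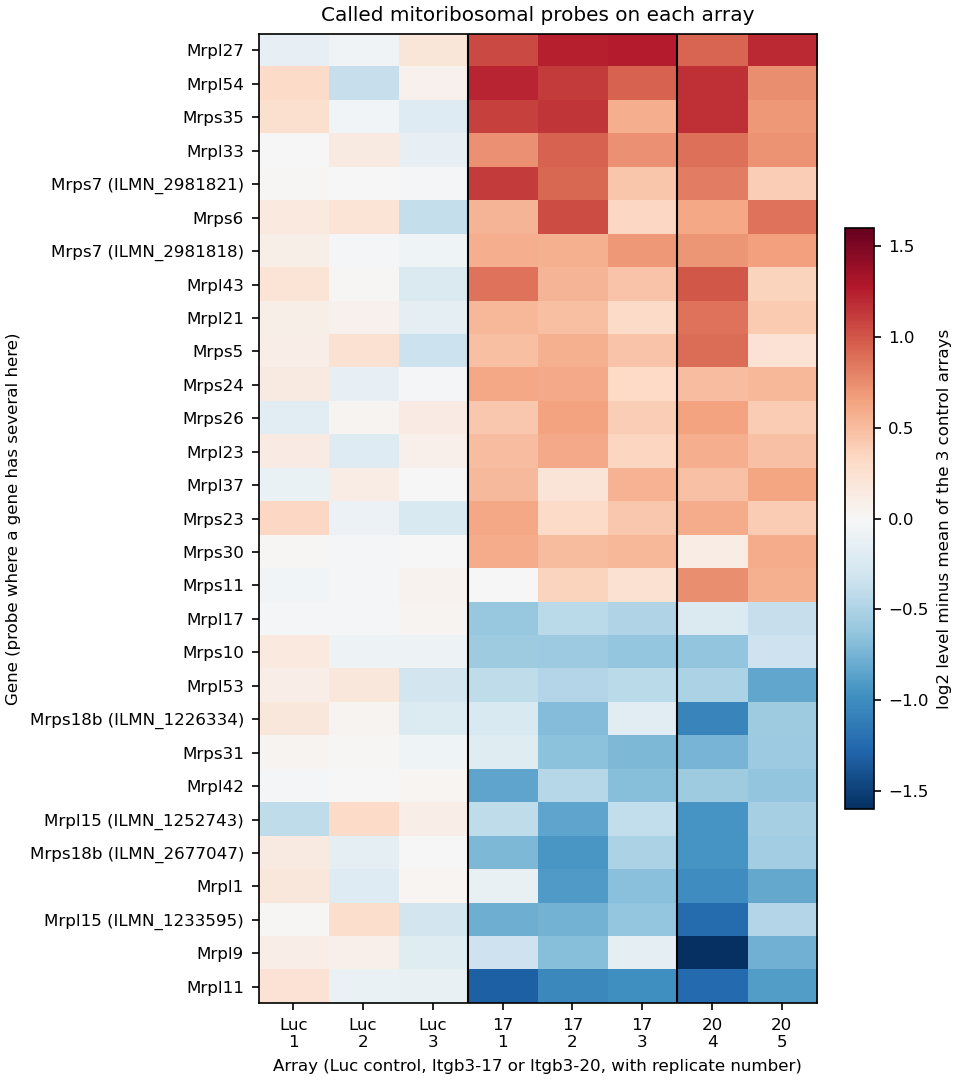
log2 level of the 29 called mitoribosomal probes on each of the 8 arrays, as the difference from the mean of the 3 Luc control arrays (red higher, blue lower), ordered by the knockdown minus control difference; vertical lines part the groups. The 17 rises run from Mrpl27 down to Mrps11 and the 12 falls from Mrpl17 down to Mrpl11, and falls other than that of Mrpl11 were not called with arrays scaled to a common median.

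Several genes were read by more than 1 probe. For 21 genes more than 1 probe was tested, which makes 43 pairs of probes, and 22 of the pairs (51.2%) differed from control in the same direction, where the share was 57.3% of 4082 pairs over all genes. Across these pairs the Pearson correlation of the differences was 0.207, and 0.22 over all genes; pairs of a gene with several probes share values, so this is a description. Both probes were called in 3 pairs, of Mrps7, Mrpl15 and Mrps18b, and each time in the same direction, as in 195 of 257 such pairs over all genes. Just 1 probe was called in 19 pairs, and in 8 of these the other probe had the opposite sign. In all, 16 genes had a probe called higher, 10 had a probe called lower and 0 had probes called in both directions.

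**Figure D4:**
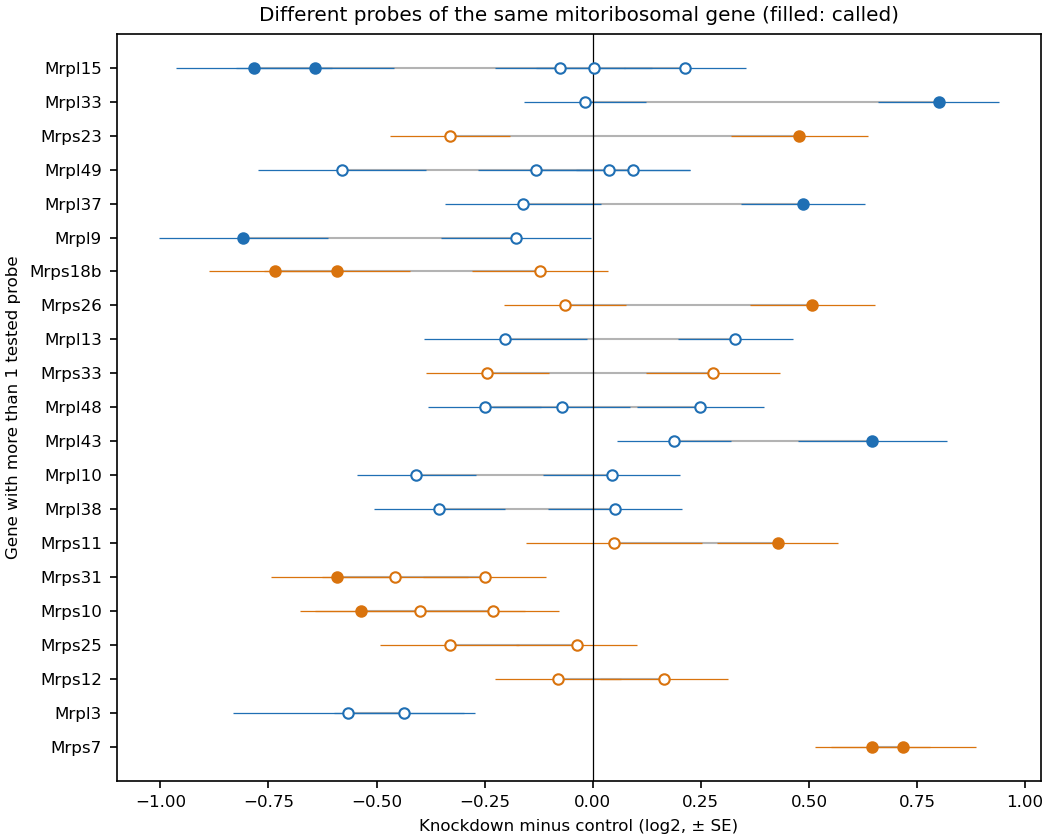
Knockdown minus control (log2, ± SE) of each tested probe of the 21 mitoribosomal genes with more than 1, ordered by the gap between the lowest and highest probe, blue for Mrpl and orange for Mrps symbols, filled where called. Mrpl33 has a probe at 0.80 and another at -0.02, while both probes of Mrps7 are called at 0.65 and 0.72.

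Taken alone against the same controls, Itgb3-17 gave 10 mitoribosomal probes called higher and 6 lower (16.3%, where 12.9% of all tested probes were called, 7.22% higher and 5.69% lower) and Itgb3-20 gave 8 and 10 (18.4%, against 11% of all tested probes, 5.71% higher and 5.27% lower). Among probes above background on all 8 arrays the share was lower for the members with Itgb3-17, 18.5% of 81 against 21.4% of 6215, and with Itgb3-20 it was 19.8% against 17.3%. With arrays scaled to a common median these counts were 20 and 0 with Itgb3-17, and 4 and 0 with Itgb3-20. The hairpins share their 3 controls, so their differences are not independent. Of the 29 probes called for both hairpins together, 10 were called with each, 6 with Itgb3-17 and not Itgb3-20, 8 with Itgb3-20 and not Itgb3-17, and 5 with neither alone, and all 29 had the same sign with each. The counts with Itgb3-20 rest on 2 arrays. Without its replicate 4 they were 1 and 0, under the assumption that the remaining array varies like those of the other groups, and without replicate 5 they were 11 and 13. Without Luc control replicate 1 they were 5 and 3, and without Luc control replicate 2 they were 5 and 5. With Itgb3-17 the counts were 5 and 2 without its own replicate 2, 5 and 4 without its replicate 1 and 8 and 3 without its replicate 3. Leaving out Luc control replicate 2 or 3 left 6 rises with Itgb3-17, with 5 and 6 falls.

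The difference between the hairpins was tested itself. For Itgb3-20 minus Itgb3-17, limma called 0 of the 98 mitoribosomal probes, where 0.533% of all tested probes were called (0.248% higher and 0.285% lower). At an unadjusted p under 0.05 there were 2 higher and 5 lower, and the other settings called at most 1 in either direction, or 2 lower when Itgb3-20 replicate 5 was left out. The lowest p was that of Mrpl9 (0.00291, adjusted p = 0.131), which differed by -0.85 (SE 0.24), from -0.38 with Itgb3-17 and -1.23 with Itgb3-20. Mrps28, a protein of the small subunit, measured 6.24, 5.84 and 6.22 on the Luc control arrays, 6.20, 6.80 and 6.25 with Itgb3-17, and 5.57 and 5.89 with Itgb3-20. It was higher than the controls by 0.32 on average with Itgb3-17 and lower by a difference of -0.37 with Itgb3-20, neither of which was called, and the hairpins differed by -0.68 (SE 0.21, adjusted p = 0.173). A p that misses the threshold does not show that the hairpins act alike.

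Other genes of mitochondrial gene expression were counted in the same way, for both hairpins minus control and by the brightest tested probe of each gene. Further tested probes of these genes are not given, and different probes of a gene could differ, as above. The counts below stand beside 17.7% of all genes called, 9.46% higher and 8.25% lower, with a median difference of 0.021. Of the mitoribosomal proteins that carry another symbol, 3 were tested and 0 called by limma. Dap3, the GTP-binding protein of the small subunit, differed by 0.23 ± 0.14, Ptcd3 by 0.22 ± 0.14 and Chchd1 by -0.25 ± 0.15. Of 19 tested assembly factors of the mitoribosome 0 were called, with a median difference of -0.0815. The nearest to the threshold were Mterf4, which recruits a methyltransferase to the ribosome, at -0.49 (SE 0.17, adjusted p = 0.056), and C1qbp at -0.45 (SE 0.16, adjusted p = 0.0614).

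Of 15 factors of mitochondrial translation 1 was called higher and 1 lower, with a median difference of 0.095, so that no larger share was called than of all genes. Mtrf1l, a release factor, was higher by 0.48 (SE 0.15, adjusted p = 0.0396), and Lrpprc, which stabilises mitochondrial messenger RNAs, was lower by -0.64 (SE 0.19, adjusted p = 0.0252). Neither call held on leaving out Luc control replicate 1, Luc control replicate 2, Itgb3-17 replicate 2 or Itgb3-20 replicate 4, among others, and both were lost with arrays scaled to a common median. Without background correction, with an offset of 50 in place of 16 in that correction, with the authors' processed values or with trend and robust moderation of the variances, Mtrf1l was not called either. The Mtrf1l probe was above background on only 5 of 8 arrays, and those of Lrpprc and Cars2 on 7. Of 12 mitochondrial tRNA synthetases 2 were called higher, Tars2 by 0.78 (SE 0.16, adjusted p = 0.0046) and Cars2 by 0.74 (SE 0.18, adjusted p = 0.0115), and 0 lower, with a median difference of 0.196. The share called in either direction was no larger than the 17.7% of all genes. Both calls were rises, where 9.46% of all genes were called higher and 8.25% lower. The Cars2 call was lost without Luc control replicate 1 or 2 (adjusted p up to 0.0683).

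Of 15 genes that copy or transcribe mitochondrial DNA or process its RNA 1 was called higher and 3 lower, with a median difference of 0.106. Twnk, the helicase of mitochondrial DNA, was higher by 0.59 (SE 0.14, adjusted p = 0.0109). Tefm, the elongation factor of the mitochondrial RNA polymerase, was lower by -0.73 (SE 0.17, adjusted p = 0.00911), Tfb2m, which helps the polymerase to start, by -0.68 (SE 0.17, adjusted p = 0.0132), and Ssbp1, which binds single-stranded mitochondrial DNA, by -0.60 (SE 0.16, adjusted p = 0.0203). None of these 3 falls was called with arrays scaled to a common median. The calls of Tefm and Tfb2m were lost without Luc control replicate 2, that of Tfb2m also without Itgb3-20 replicate 4, and that of Ssbp1 without any of the 3 controls or Itgb3-20 replicate 4 (adjusted p up to 0.0646, 0.0843 and 0.0644). Ssbp1 was not called without background correction or with the offset of 50 either.

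Among 7 tested regulators of nuclear genes for mitochondrial proteins 0 were called higher and 2 lower, with a median difference of -0.256, though neither was called with arrays scaled to a common median. Gabpb1, a subunit of the ETS-family factor GABP, was lower by -0.71 (SE 0.16, adjusted p = 0.00583), a call that held with each array left out. The coactivator Ppargc1b was lower by -0.45 (SE 0.14, adjusted p = 0.0365), a call lost with any of 6 arrays left out (Luc control replicates 1 and 3, Itgb3-17 replicates 1 to 3 and Itgb3-20 replicate 5; adjusted p up to 0.111), and also without background correction, with the offset of 50, with the authors' processed values, with array weights, with trend and robust moderation and with the knockdown arrays as a single group. Nrf1 differed by -0.42 (SE 0.15, adjusted p = 0.0637) and Yy1 by -0.12 ± 0.14, and neither was called. The 13 proteins encoded by mitochondrial DNA were not analysed here.

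RefSeq promoter windows were matched for 67 of the 76 mitoribosomal genes, and Mrpl54, Mrps35 and Mrpl33 were not among them. The ETS motif was found in 38.8% of the 67 windows, against 9.93% of all 27025 promoters and 13.8% of those of genes with a probe on the array. The NRF1 motif was found in 19.4%, against 5.19% and 7.82%, and the YY1 motif in 7.46%, against 0.755% and 1.14%. The CCAAT motif, a common promoter element without a particular tie to mitochondria, was found in 37.3%, against 41.1% and 42.1%. All motifs were searched on both strands. No motif contains another, although matches were not screened for partial overlap. The windows of mitoribosomal genes had a median GC content of 58%, against 52.8% for all promoters and 57.3% for genes on the array, and a median of 21 CG dinucleotides, against 8 and 16. The ETS, NRF1 and YY1 motifs each contain CG and the CCAAT motif does not.

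The motifs were counted by the call of the gene. The ETS motif was present in 6 of the 14 matched genes with a probe called higher, as in that of Mrpl27 shown above, in 3 of the 9 with a probe called lower and in 15 of the 37 that were tested and not called. The NRF1 motif was present in 1, 2 (among them Mrpl9) and 7 of these genes, the YY1 motif in 2, 0 and 2, and CCAAT in 4, 5 and 14. A match is a description of the letters, and binding of a factor was not measured.

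Mitoribosomal genes often lay head to head with another gene, that is on opposite strands with starts at most 1000 bases apart and pointing away from each other. This held for 25 of the 67 matched genes (37.3%), against 12.2% of all genes with a promoter entry and 14.5% of those on the array. It held for 8 of the 14 genes with a probe called higher, 1 of the 9 with a probe called lower and 13 of the 37 tested and not called. In 13 of the 24 such pairs both genes were tested, and 12 of the 13 (92.3%) differed from control in the same direction, where 52.9% of 293 head-to-head pairs without a mitoribosomal gene did. Several of these signs are uncertain, as a gene of the pair differed by less than its SE. Among them were Mrps12 and Sars2 (-0.08 ± 0.15 and -0.003 ± 0.18), Mrpl51 (0.13 ± 0.14) and Mrpl57 (0.11 ± 0.15). Mrpl51 and Mrpl57 were above background on only 2 arrays, Cyb5rl and Zfp661 on 3 and Ska3 on 4. All these pairs were looked at after the values were seen, and no test was made.

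With the brightest probe standing for each gene, both genes were called in 0 of the 13 pairs and just 1 in 7, where of the 293 other pairs both were called in 8 and just 1 in 94. The mitoribosomal gene alone was called in 3 pairs, of Mrps7 with Gga3 (0.37 ± 0.19), Mrps5 with Zfp661 (0.11 ± 0.14) and Mrpl37 with Cyb5rl (0.01 ± 0.19). Its partner alone was called in 4, each time higher. Tmem63b, opposite Mrpl14, was higher by 0.76 (SE 0.14, adjusted p = 0.00204) and Klc4, opposite Mrpl2, by 0.80 (SE 0.18, adjusted p = 0.00671), both in limma and both with each array left out, while Mrpl14 and Mrpl2 differed by 0.10 ± 0.14 and 0.07 ± 0.14. Twnk, opposite Mrpl43, was called at 0.59, where the brighter Mrpl43 probe was at 0.19 and not called and the other was called at 0.65, so that at that probe both genes of the pair were called. The Twnk probe was above background on only 5 of 8 arrays. Mrps11 and Mrpl46 start 42 bases apart, so that the Mrps11 window shown above also holds the start of Mrpl46, which differed by 0.15 ± 0.14 where Mrps11 was called at 0.43.

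**Figure D5:**
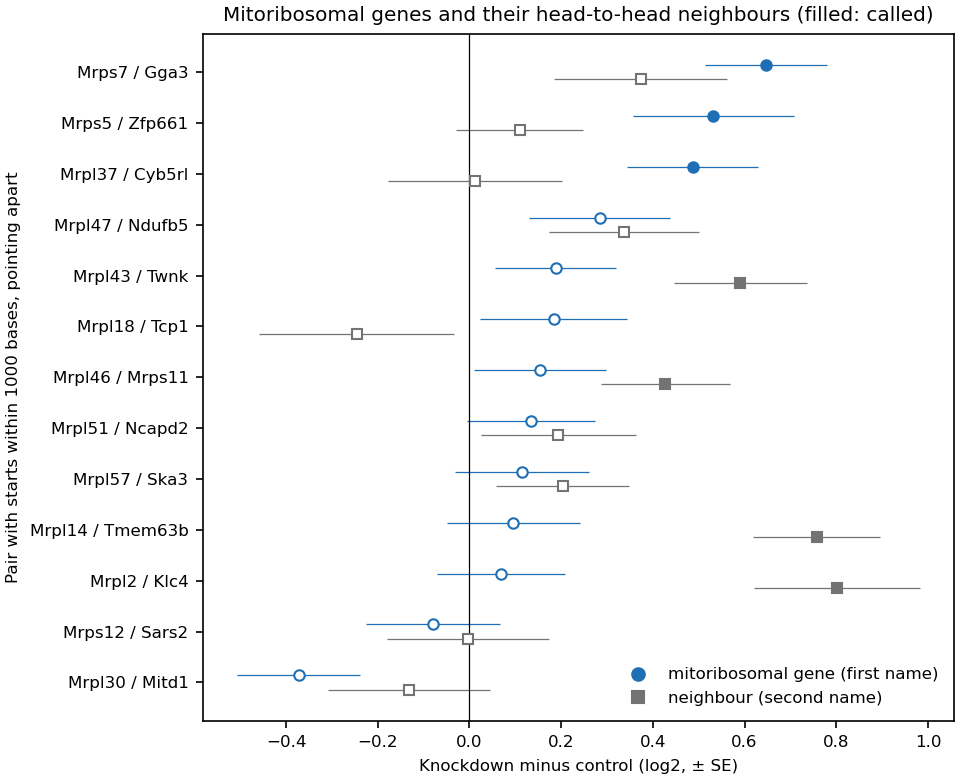
Knockdown minus control (log2, ± SE) for the 13 head-to-head pairs with both genes tested, blue circles for the mitoribosomal gene named first and grey squares for the neighbour named second, filled where called; each gene is represented by its brightest tested probe. In 12 pairs both points lie on the same side of 0, the exception being Mrpl18 and Tcp1. Several points lie within their SE of 0.

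Under every alternative tried for knockdown minus control, 6 of the 29 called mitoribosomal probes stayed called, those of Mrpl27, Mrpl54, Mrps35, Mrpl33 and Mrpl11 and the brighter probe of Mrps7. With each array left out in turn, 9 stayed called, these 6 and the second Mrps7 probe, Mrps18b at its probe of largest change, and Mrpl42.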

How the data were processed

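Total RNA was isolated with Trizol and labelled with biotin for Illumina bead arrays, per the labels' protocols. The deposited signal of each probe is an intensity on a linear scale, not normalized, per the file headers, and beside it stands a detection p-value with no method given in the sources used here. The authors also deposited a log2 table of processed values. It ranked the probes of each array as the signals did (Spearman 1) and had a median of 6.61 on every array, but its method, centring and any offset remain unknown, and it served only as an alternative.

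The function neqc of limma 3.58.1 (R 4.3.3) was applied to the signals, which is normexp background correction (offset 16, negative controls taken from detection p-values), then quantile normalization and log2. Probes with detection p under 0.05 on at least 2 of 8 arrays were tested, 13315 of 45281. All 8 arrays entered a model of 3 groups (lmFit, eBayes, two-sided tests), with contrasts of both hairpins or each hairpin against control and of Itgb3-20 against Itgb3-17, with Benjamini-Hochberg adjustment over all tested probes. The fit was tested on simulated data. Groups came from sample titles. Gene symbols came from the array's annotation table, 132 of 132 member probes matched a RefSeq entry (GRCm38.p6), and 0 symbols changed. The tested probe of highest mean stood for a gene. Levels were not compared between genes, apart from the summed levels of marker lists, and a probe is called brighter only beside another of its gene.

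Named genes were all members called in any contrast, with values of every array for the 12 of largest change and, outside that rule, Mrpl42, up to 4 called members of each other list, and Itgb3; Mrpl10, Mrpl12, Mrps12, Mrps18a, Mrps18c, Mrps28, the other genes of lists not called, and the head-to-head neighbours were chosen after their values were seen. Members of highest and lowest level, which the rule also named, are left out because levels of different probes do not compare. The members and lists were chosen with earlier results of these data known. Alternatives were other background corrections, scaling, filters, moderation, array weights, the authors' values, single-group and replicate-block fits, and each array left out. Median signals were 91.2 to 102, and no batch is recorded in the labels used.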

Additional observations from a re-analysis of the deposited data

How the results depend on the processing

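All 29 called mitoribosomal probes kept their sign under every alternative, and 6 kept their call under all. For knockdown minus control (17 higher, 12 lower; by gene 13 and 7) the rises numbered 11 with no filter on dim probes. The falls numbered 19 without background correction and 1 with median scaling, and by gene 15 without background correction, 13 with a normexp offset of 50, 1 with median scaling, 13 with the authors' processed values and 11 with trend and robust moderation; the cause was not tested. For Itgb3-17 minus control (10 and 6) the rises were 20 with median scaling and 6 with no filter, and the falls 12 without background correction, 11 with the normexp offset of 50, 0 with median scaling and 11 with the authors' values. For Itgb3-20 minus control (8 and 10) the rises were 13 without background correction, 4 with median scaling, 4 with no filter, 5 with array weights and 13 with trend and robust moderation, and the falls 0 with median scaling, 2 with no filter and 6 with array weights. For Itgb3-20 minus Itgb3-17 (0 and 0) 1 rise was called without background correction, with the normexp offset of 50 and with the authors' values, and 1 fall with the normexp offset of 50 and with trend and robust moderation. Without a filter 45281 probes were tested, which enlarges the adjustment.

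Leaving out each array in turn gave 8 to 15 rises and 6 to 18 falls for knockdown minus control, by gene 6 to 11 and 3 to 11, for Itgb3-17 5 to 12 and 2 to 7, for Itgb3-20 1 to 11 and 0 to 13, and for the hairpin difference 0 to 0 and 0 to 2. With the replicate number as a block over the 3 Luc control and 3 Itgb3-17 arrays, 12 probes were higher and 9 lower, against 12 and 7 on the same 6 arrays without the block. Deviations of same-numbered arrays correlated at 0.0279, -0.024 and -0.00589, so that no shared deviation was seen. With 3 arrays in each group this cannot show whether the numbers pair the samples. For Itgb3-20, whose numbers no control shares, no paired fit exists. Signal over background limits the 17 tested members that were below background on some arrays.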
